A study of Mus musculus with 10 samples.

Results

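The genes described here are a listed group of 10 of the 23284 gene symbols in the count table, found by symbol: the ligand Bmp4, the type I receptors Acvrl1, Bmpr1a and Tgfbr1, the type II receptors Bmpr2 and Tgfbr2, the co-receptors Eng and Tgfbr3, and the inhibitory Smads Smad6 and Smad7. All 10 were among the 15321 genes that could be tested. They were measured by RNA-Seq in 3 endothelial populations of wild-type C57BL/6 mice aged 6 to 8 weeks: lymph node lymphatic endothelial cells (LEC; LN-LEC, 4 libraries), lymph node blood endothelial cells (BEC; LN-BEC, 3 libraries) and LEC of the diaphragm (D-LEC, 3 libraries). No animal was treated or carried a modified allele. Nodes of several sites were combined for the lymph node cells. CD45-bearing cells were removed with beads, and CD31-positive cells were then sorted by podoplanin, which LEC carry and BEC lack. Every library was made from a pool of several mice, so the spread between libraries is that between pools. The question asked of these genes was how the receptor set differed between lymphatic and blood endothelium, and between lymphatic endothelium of the node and of the diaphragm.

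Ligands of the TGF-beta family bind a complex of type II and type I receptors, both of which are kinases. The type II receptor activates the type I receptor, which phosphorylates signaling Smads: Smad1, Smad5 and Smad9 in the BMP branch, Smad2 and Smad3 in the TGF-beta branch, both joined by Smad4. In endothelium, ALK1 (encoded by Acvrl1) with its co-receptor endoglin (encoded by Eng) is known for driving Smad1 and Smad5 in response to circulating BMP9 and BMP10, and loss of either gene is known from hereditary vascular malformations. Smad6 and Smad7 are inhibitors that are themselves induced by the pathway, Smad6 acting mostly on the BMP branch and Smad7 on both branches.

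The libraries held 22429940 to 48906070 counted fragments, and levels are counts divided by a size factor (normalized counts), with SD and n beside each mean. Lineage markers followed the labels. Summed over 5 lymphatic markers (Lyve1, Pdpn, Prox1, Reln and Flt4), the LN-LEC reached 94668 to 119450 normalized counts, the D-LEC 387239 to 415551 and the LN-BEC 2891 to 7955. Pdpn encodes podoplanin, on which LEC and BEC were sorted, so it is not an independent check of the labels. All 5 were lower in LN-BEC than in either LEC population at an adjusted p under 0.05. Summed over 4 blood markers (Nrp1, Flt1, Vwf and Notch4), the LN-BEC reached 69497 to 72713 and no LEC library more than 1374. Libraries are numbered within each population in the order of the sample list, because the labels give no replicate numbers. LN-BEC 3 had the highest lymphatic sum of the LN-BEC and, with LN-LEC 4, lay farthest from the other libraries of its population. LN-BEC 3 and LN-LEC 4 were also each other's nearest library of another population (log2 distance 1.23). LN-LEC 4 was the deepest library, with 48906070 fragments. Transcripts of other cell types were present. Skeletal muscle markers (7 genes) summed to 975 to 1324 in D-LEC and to at most 103 elsewhere. Mesothelial markers (5 genes) summed to 587 to 1817 in D-LEC and to at most 131 elsewhere. Fibroblast and pericyte markers (10 genes) summed to 4402 to 9183 in LN-LEC, 6606 to 11210 in LN-BEC and 1277 to 4464 in D-LEC. The 13 leukocyte markers summed to 787 to 1241 in LN-BEC and to 150 to 306 in the LEC libraries, and 3 red cell markers to at most 63.9 in any library, with 2 of the 3 at 0 in all of them. In such bulk samples, fewer cells that express a gene and less RNA of it per cell cannot be told apart.

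More of the 10 genes differed between LN-BEC and either lymphatic population than between the lymphatic populations themselves. An adjusted p under 0.05 (edgeR, 1 fit to all 10 libraries) was taken as a difference. Between LN-BEC and LN-LEC, 9 of the 10 genes differed, 6 higher and 3 lower in LN-BEC, where 38.2% of all tested genes differed (18.4% higher and 19.8% lower in LN-BEC). Between LN-BEC and D-LEC, 8 of the 10 differed, 7 higher and 1 lower in LN-BEC, against 48.1% of all genes (25.6% higher and 22.5% lower). Between LN-LEC and D-LEC, 4 of the 10 differed, 2 in each direction, against 45.8% of all genes (24.1% higher and 21.7% lower in LN-LEC), so this share was near that of the table as a whole. The libraries of the compared populations did not overlap for 9, 8 and 5 of the 10 genes in these comparisons, as for 44.9%, 56.1% and 50% of all tested genes. The median absolute log2 fold change of the 10 genes was 1.38 between LN-BEC and LN-LEC, 1.27 between LN-BEC and D-LEC and 0.59 between LN-LEC and D-LEC, where all tested genes had 0.43, 0.58 and 0.52. The 3 comparisons share their libraries and are not independent of each other. All tested genes include genes averaging as little as 1 normalized count in a population, so the shares are not matched for level. The 10 genes were chosen with earlier results of these data known.

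**Figure D1:**
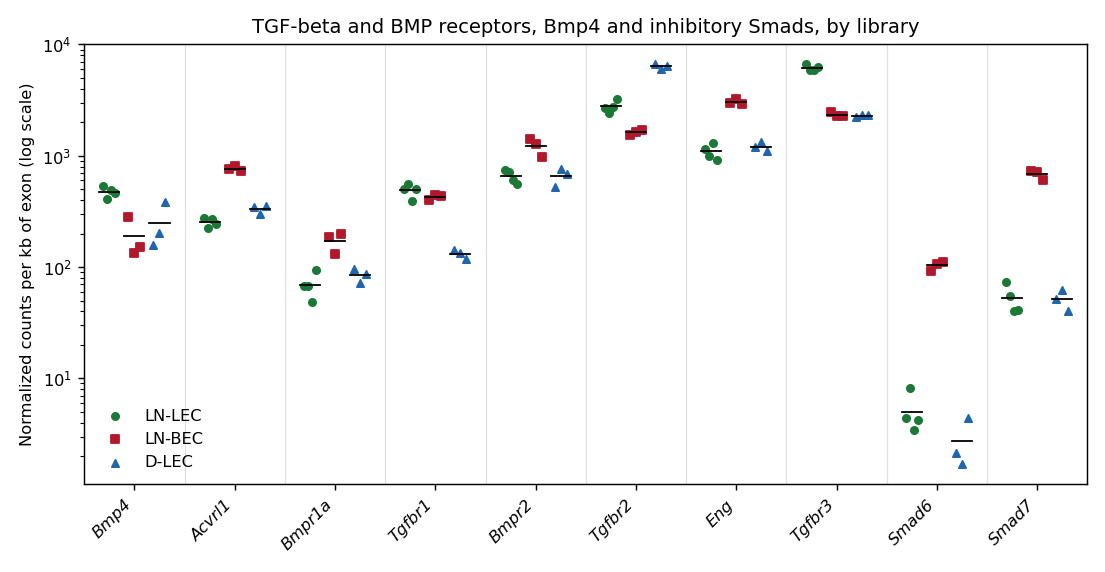
Normalized counts per kilobase of exon (log scale) of the 10 genes in each library, with LN-LEC as green circles, LN-BEC as red squares, D-LEC as blue triangles and each population's mean as a black line. Smad6 and Smad7 stand far higher in all 3 LN-BEC libraries, Tgfbr2 is highest in D-LEC, Tgfbr3 is highest in LN-LEC and Tgfbr1 is lowest in D-LEC.

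**Figure D2:**
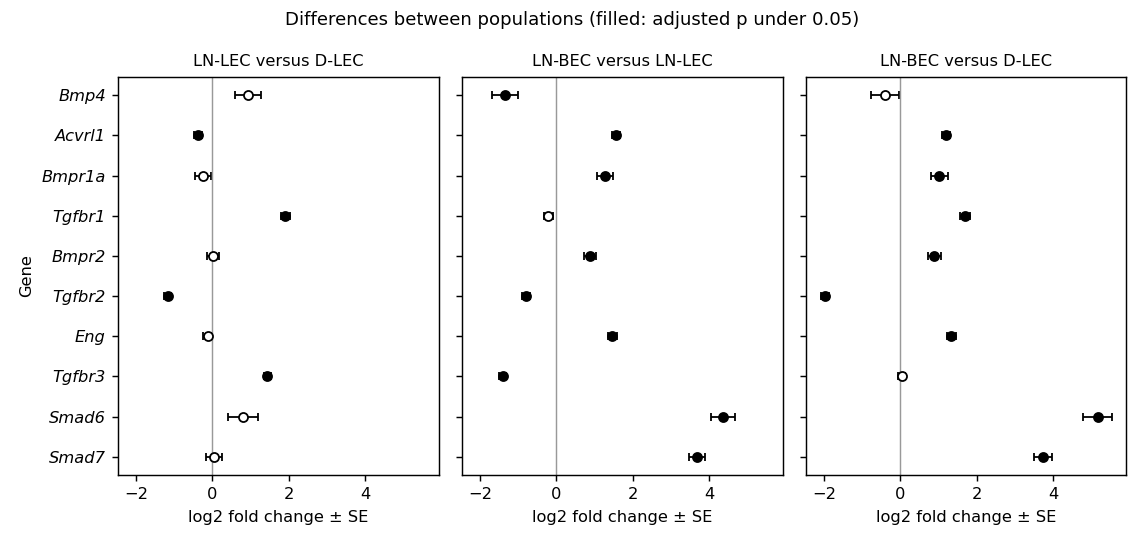
log2 fold change (± SE) of each of the 10 genes in the 3 comparisons, positive where the population named first is higher, with filled circles for an adjusted p under 0.05. The middle and right panels have their largest values at Smad6 and Smad7, which lie near 0 (Smad7) or miss the threshold (Smad6) in the left panel.

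The inhibitory Smads had the largest differences of the group. Smad6 (mm9 chr9:63800883-63869866, minus strand, 4 exons), an inhibitor of BMP receptor signaling, had 274, 317 and 331 normalized counts in the 3 LN-BEC libraries. It had 12.96, 24.1, 10.2 and 12.6 in the LN-LEC libraries, from 9 to 20 raw counts each. In D-LEC it had 6.31, 5.01 and 13.2, from 5 to 16 raw counts. Every LN-BEC library was thus far above every LEC library, while the LN-LEC and D-LEC libraries overlapped. Smad6 in LN-BEC was 20.5-fold above LN-LEC (log2 fold change 4.36 ± 0.32 SE, adjusted p = 9.12e-08) and 35.9-fold above D-LEC (5.17 ± 0.38, adjusted p = 6.58e-08). Without D-LEC 3, which had the highest D-LEC value, the latter log2 fold change was 5.75. The excess of LN-LEC over D-LEC, 0.81 ± 0.39 with an adjusted p of 0.107 in all libraries, became 1.39 with an adjusted p of 0.0197.

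Smad7, which recruits ubiquitin ligases to the type I receptors and blocks both branches, had 3262, 3150 and 2665 normalized counts in LN-BEC. The LN-LEC libraries had 327, 246, 180 and 181, and the D-LEC libraries 230, 277 and 179. The lymphatic libraries covered the same range, and the LN-BEC libraries did not overlap with either. Smad7 in LN-BEC was 12.95-fold above LN-LEC (log2 fold change 3.70 ± 0.21 SE, adjusted p = 8.47e-08) and 13.3-fold above D-LEC (3.74 ± 0.24, adjusted p = 1.39e-07). Between LN-LEC and D-LEC the log2 fold change was 0.04 ± 0.22 with an adjusted p of 0.90. The leukocyte marker sum was also highest in LN-BEC, and its part in the inhibitory Smad values was not tested. Among the LN-BEC libraries, LN-BEC 3 had the lowest leukocyte sum, 787, beside the highest Smad6 and the lowest Smad7 value.

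Promoter sequence is shown for Smad6 because it had the largest fold between populations of the 10 genes and because a Smad-binding palindrome was found in it. RefSeq promoters (GRCm38.p6, 250 bases before to 50 after the start) matched 7 of the 10 genes by symbol, in 8 entries: Bmp4, Bmpr1a, Bmpr2, Eng, Smad6, Tgfbr1 (a pair of starts) and Tgfbr2. The genes not matched were Acvrl1, Tgfbr3 and Smad7. The stretch below is chr9:64022056-64022309 on the minus strand of GRCm38.p6, and the capitals mark the palindrome, which spans the annotated start with 4 bases on each side of it.
Smad6: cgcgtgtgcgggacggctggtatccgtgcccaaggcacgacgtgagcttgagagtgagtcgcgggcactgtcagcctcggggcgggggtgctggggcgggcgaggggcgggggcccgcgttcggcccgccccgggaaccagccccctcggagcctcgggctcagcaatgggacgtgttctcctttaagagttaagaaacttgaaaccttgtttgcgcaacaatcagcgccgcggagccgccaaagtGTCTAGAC

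The palindrome GTCTAGAC, the optimal Smad3 and Smad4 binding sequence in textbooks, was present in 70 of 32851 promoters (0.213%), and of the 8 entries of these genes only in that of Smad6. Shorter motifs were searched on both strands, each counted separately. GGCGCC, a GC-rich sequence bound by BMP-branch Smads, was present in 11.9% of all promoters and in entries of Bmpr1a, Bmpr2 and Tgfbr1. GGAGCC was present in 30.8% of all promoters and in entries of Bmp4, Smad6, Tgfbr1 and Tgfbr2. CAGAC was present in 49.6% of all promoters and in entries of Eng, Tgfbr1 and Tgfbr2. A match is a description of letters in this window and not of binding.

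The type I receptors did not follow a common order. Acvrl1 (mm9 chr15:100958968-100975767, plus strand, 11 exons), which encodes ALK1, had 2731, 2903 and 2624 normalized counts in LN-BEC. It had 1002, 810, 979 and 888 in LN-LEC and 1259, 1076 and 1289 in D-LEC. No library of a population overlapped with those of another, and the order was LN-BEC, D-LEC, LN-LEC. The LN-BEC level was 2.96-fold that of LN-LEC (log2 fold change 1.57 ± 0.10 SE, adjusted p = 1.94e-08) and 2.29-fold that of D-LEC (1.19 ± 0.10, adjusted p = 4.30e-07). LN-LEC and D-LEC lay closer to each other, at -0.37 ± 0.10 (adjusted p = 0.00640).

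Bmpr1a, which encodes the BMP receptor ALK3, was the least abundant of these receptors per kilobase of exon in every population. It had 1022, 721 and 1081 normalized counts in LN-BEC. The LN-LEC libraries had 372, 373, 263 and 515, and the D-LEC libraries 525, 392 and 475. The LN-BEC libraries lay above all others, and the lymphatic libraries overlapped. The log2 fold change was 1.28 ± 0.20 over LN-LEC (adjusted p = 0.000314) and 1.03 ± 0.22 over D-LEC (adjusted p = 0.00228). Between LN-LEC and D-LEC it was -0.25 ± 0.21 (adjusted p = 0.349), which became -0.46 with an adjusted p of 0.0434 when LN-BEC 3 and LN-LEC 4 were both left out.

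Tgfbr1 (mm9 chr4:47366177-47427796, plus strand, 9 exons), which encodes the TGF-beta receptor ALK5, set D-LEC apart from both lymph node populations. It had 2831, 3170, 2209 and 2840 normalized counts in LN-LEC and 2279, 2533 and 2440 in LN-BEC, so that the lymph node libraries overlapped. In D-LEC it had 806, 760 and 675, below every lymph node library. No BEC of the diaphragm were measured, so a difference between tissues cannot be told apart from a trait of the D-LEC population. Against D-LEC, Tgfbr1 was 3.75-fold higher in LN-LEC (log2 fold change 1.91 ± 0.12 SE, adjusted p = 1.79e-08) and 3.25-fold higher in LN-BEC (1.70 ± 0.12, adjusted p = 6.58e-08). Between LN-BEC and LN-LEC the log2 fold change was -0.21 ± 0.11 (adjusted p = 0.168), and without LN-LEC 3, the lowest LN-LEC library, it was -0.30 with an adjusted p of 0.0256.

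Of the type II receptors, Bmpr2 was higher and Tgfbr2 lower in LN-BEC than in either lymphatic population. LN-BEC and D-LEC differ in tissue as well as in lineage. Bmpr2, the type II receptor for BMPs, had 4947, 4465 and 3404 normalized counts in LN-BEC. The LN-LEC libraries had 2627, 2529, 2135 and 1965, and the D-LEC libraries 1823, 2661 and 2418. The lymphatic populations had nearly the same mean, 2314 ± 315 (n = 4) and 2301 ± 431 (n = 3), and all LN-BEC libraries lay above them. LN-BEC 3 was the lowest of its population. The log2 fold change was 0.87 ± 0.16 over LN-LEC (adjusted p = 0.000777) and 0.90 ± 0.17 over D-LEC (adjusted p = 0.000958). Of the 230 exon windows of 100 bases tested for Bmpr2, 3 had a second copy in the mm9 genome.

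Tgfbr2 (mm9 chr9:115996813-116084481, minus strand, 8 exons), the type II receptor for TGF-beta, had its highest level in D-LEC, with 31923, 29064 and 30446 normalized counts. The LN-LEC libraries had 12829, 11611, 13174 and 15591. The LN-BEC libraries had 7421, 7779 and 8078. The order D-LEC, LN-LEC, LN-BEC held without overlap between libraries. LN-BEC were 3.91-fold below D-LEC (log2 fold change -1.97 ± 0.11 SE, adjusted p = 4.54e-09) and 1.73-fold below LN-LEC (-0.79 ± 0.10, adjusted p = 2.40e-05). LN-LEC were 2.26-fold below D-LEC (-1.17 ± 0.10, adjusted p = 3.64e-07). The D-LEC had the most Tgfbr2 and the least Tgfbr1 of the 3 populations.

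Among the co-receptors, Eng (mm9 chr2:32502115-32538189, plus strand, 14 exons), which encodes endoglin, had 10542, 11659 and 10403 normalized counts in LN-BEC. It had 4110, 3576, 4615 and 3299 in LN-LEC and 4244, 4716 and 3979 in D-LEC, and these ranges overlapped. Eng in LN-BEC was 2.76-fold above LN-LEC (log2 fold change 1.46 ± 0.11 SE, adjusted p = 1.73e-07) and 2.53-fold above D-LEC (1.34 ± 0.12, adjusted p = 7.28e-07). The lymphatic populations differed by -0.12 ± 0.11 (adjusted p = 0.395). Of the exon bases of Eng, 1.71% are shared with Fpgs, and the counting ignored strand.

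Tgfbr3 (mm9 chr5:107535589-107718614, minus strand, 17 exons), which encodes betaglycan, a co-receptor that presents TGF-beta2 and binds inhibins, was highest in LN-LEC. The LN-LEC libraries had 39968, 35298, 35403 and 37992 normalized counts. The LN-BEC libraries had 14888, 13744 and 13883, and the D-LEC libraries 13366, 14040 and 14170. These ranges of LN-BEC and D-LEC overlapped, and each LN-LEC library was above all of them. The LN-LEC level was 2.65-fold that of LN-BEC (log2 fold change of LN-BEC over LN-LEC -1.41 ± 0.09 SE, adjusted p = 1.86e-08) and 2.72-fold that of D-LEC (1.44 ± 0.09, adjusted p = 1.08e-08). Between LN-BEC and D-LEC the log2 fold change was 0.04 ± 0.09 with an adjusted p of 0.751.

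The ligand Bmp4 varied widely within LN-BEC and D-LEC. It had 1059, 820, 985 and 917 normalized counts in LN-LEC. The LN-BEC libraries had 558, 266 and 302, and the D-LEC libraries 312, 404 and 773. The LN-LEC libraries were above all others, and the LN-BEC and D-LEC libraries overlapped. LN-BEC were 2.54-fold below LN-LEC (log2 fold change -1.34 ± 0.35 SE, adjusted p = 0.0145). This call was lost without LN-BEC 2 (-1.15, adjusted p = 0.0551) or LN-BEC 3 (-1.20, adjusted p = 0.0545). The excess of LN-LEC over D-LEC, 0.94 ± 0.35, had an adjusted p of 0.0529, which fell under the threshold without D-LEC 3 (1.42, adjusted p = 0.00313) or LN-BEC 1 (0.94, adjusted p = 0.0222). D-LEC 3, the library with the most Bmp4 among D-LEC, also had the highest mesothelial sum (1817). D-LEC 1 had the least Bmp4 of the D-LEC, yet its mesothelial sum (1512) was above that of D-LEC 2 (587). Its fibroblast and pericyte sum (4464) was the highest of the D-LEC. LN-BEC 1, with the most Bmp4 among LN-BEC, had the highest fibroblast and pericyte sum (11210), and LN-BEC 2 was lowest for both (sum 6606). LN-BEC 3 had a sum of 10502 beside a Bmp4 value of only 302. The part of mesothelial cells, fibroblasts and pericytes in the Bmp4 values was not tested. Of the exon bases of Bmp4, 4.32% are shared with the predicted gene Gm15217.

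Compared between genes on the scale of normalized counts per kilobase of exon, each population had another leading receptor. Tgfbr3 led in LN-LEC (6140 ± 371, n = 4), followed by Tgfbr2 (2778 ± 348) and Eng (1092 ± 163). Eng led in LN-BEC (3043 ± 193, n = 3), followed by Tgfbr3 (2341 ± 103) and Tgfbr2 (1621 ± 68.8). Tgfbr2 led in D-LEC (6365 ± 299, n = 3), followed by Tgfbr3 (2290 ± 71.3) and Eng (1208 ± 104). None of these neighbors overlapped between libraries. Bmpr2 came next in all 3 populations. It was followed by Acvrl1 in LN-BEC (759 ± 38.9) and D-LEC (333 ± 31.8), where the libraries of Acvrl1 overlapped with those of Smad7 and Bmp4, respectively. In LN-LEC it was followed by Tgfbr1 (488 ± 70.8) and Bmp4 (474 ± 51.01), which overlapped, and then by Acvrl1 (254 ± 24.4). Smad6 was the lowest of the 10 in every population, at 103 ± 10.001 in LN-BEC, 5.03 ± 2.10 in LN-LEC and 2.75 ± 1.49 in D-LEC.

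Ratios within a library set receptors of the BMP branch against their TGF-beta counterparts, on the same per-kilobase scale. For 12 ratio tests, an exact two-sided permutation test over libraries was used, whose smallest possible p is 0.0571 for LN-LEC against another population and 0.1 for LN-BEC against D-LEC, so that none could pass 0.05. Acvrl1 over Tgfbr1 was 0.553, 0.399, 0.693 and 0.488 in LN-LEC, 1.87, 1.79 and 1.68 in LN-BEC, and 2.44, 2.21 and 2.98 in D-LEC. Tgfbr1 thus exceeded Acvrl1 in all LN-LEC libraries, and the reverse held in all others. The log2 ratio differed by 1.77 ± 0.17 SE between LN-BEC and LN-LEC and by -2.27 ± 0.21 between LN-LEC and D-LEC (exact p = 0.0571 and adjusted p = 0.114 for both). D-LEC had a higher ratio than LN-BEC, with less Acvrl1 and less Tgfbr1. Between LN-BEC and D-LEC the difference was -0.50 ± 0.14 (exact p = 0.1, adjusted p = 0.12).

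Bmpr2 over Tgfbr2 was 0.910, 0.784 and 0.575 in LN-BEC. It was 0.2796, 0.297, 0.221 and 0.172 in LN-LEC and 0.0779, 0.125 and 0.108 in D-LEC. Tgfbr2 exceeded Bmpr2 in every library, least in LN-BEC and most in D-LEC. The log2 ratio of LN-BEC was 1.65 ± 0.26 above LN-LEC (exact p = 0.0571, adjusted p = 0.114) and 2.87 ± 0.28 above D-LEC (exact p = 0.1, adjusted p = 0.12), and LN-LEC were 1.22 ± 0.27 above D-LEC (exact p = 0.0571, adjusted p = 0.114). Eng over Tgfbr3 was 1.20, 1.44 and 1.27 in LN-BEC, 0.538, 0.569 and 0.476 in the D-LEC, and 0.174, 0.172, 0.221 and 0.147 in LN-LEC. Endoglin transcripts exceeded those of betaglycan in LN-BEC only, among the 10 libraries. That log2 ratio differed by 2.88 ± 0.14 between LN-BEC and LN-LEC and by -1.58 ± 0.14 between LN-LEC and D-LEC (exact p = 0.0571, adjusted p = 0.114 for both). Between LN-BEC and D-LEC it differed by 1.30 ± 0.11 (exact p = 0.1, adjusted p = 0.12).

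Smad6 over Smad7 was below 1 in every library, at 0.126, 0.151 and 0.186 in LN-BEC, 0.0593, 0.146, 0.0846 and 0.104 in LN-LEC, and 0.0411, 0.0271 and 0.110 in D-LEC. LN-LEC overlapped with both other populations. The log2 ratio differed by 0.70 ± 0.32 between LN-BEC and LN-LEC (exact p = 0.114, adjusted p = 0.125), by 0.91 ± 0.66 between LN-LEC and D-LEC (exact p = 0.229, adjusted p = 0.229) and by 1.61 ± 0.62 between LN-BEC and D-LEC (exact p = 0.1, adjusted p = 0.12).

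**Figure D3:**
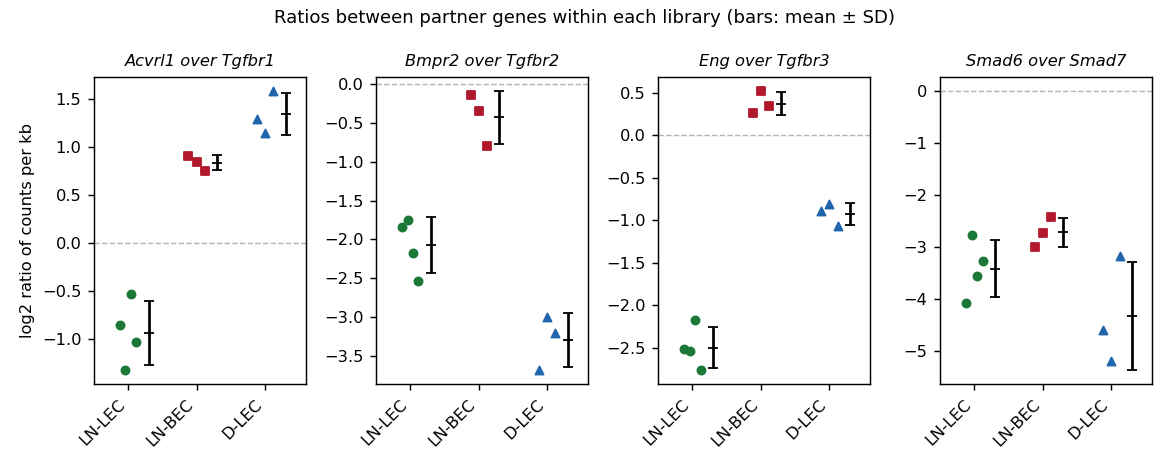
log2 ratio of normalized counts per kilobase between partner genes within each library, with the mean ± SD of each population in black and a dashed line where both genes are equal. Each panel has its own vertical scale. Acvrl1 over Tgfbr1 is below 0 in LN-LEC only, Eng over Tgfbr3 is above 0 in LN-BEC only, and Bmpr2 over Tgfbr2 and Smad6 over Smad7 are below 0 in all 10 libraries.

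The genes whose profiles over the 10 libraries lay closest to each of the group were found by the Euclidean distance between mean-centered log2 CPM profiles, and are given as a description. The nearest to Tgfbr3 was Casp4 (distance 0.24, where the median over all tested genes was 2.62). The nearest to Tgfbr2 was Ttc4 (0.31, median 2.83), and to Acvrl1 it was Robo4 (0.33, median 2.52), an endothelial guidance receptor. Distances from the inhibitory Smads were larger, both to the nearest gene and at the median, and profiles were not scaled to equal variance. Smad6 had Rdh9 (0.91, median 6.91) and St6gal1 (1.18) as its nearest genes, and Smad7 had Cdc42ep4 (0.86, median 5.60) and Sdk2 (0.88). For the others the nearest was Socs2 for Tgfbr1 (0.43), Atp10d for Bmpr2 (0.36), Ints9 for Eng (0.46), Slc39a10 for Bmpr1a (0.65) and Vps37d for Bmp4 (0.78).

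Beyond the 10 genes, 93 further genes of the pathway were listed, of which 86 could be tested. Between LN-LEC and D-LEC 59 of them differed (27 higher and 32 lower in LN-LEC), between LN-BEC and LN-LEC 46 (21 higher and 25 lower in LN-BEC), and between LN-BEC and D-LEC 58 (30 higher and 28 lower in LN-BEC), against 45.8%, 38.2% and 48.1% of all genes. Unlike among the 10 genes, but as among all tested genes, the count was higher between the lymphatic populations than between LN-BEC and LN-LEC. Most of the 12 target genes were higher in LN-BEC, as the inhibitory Smads were: between LN-BEC and LN-LEC, 9 were higher and 2 lower in LN-BEC (median log2 fold change 1.72, where all tested genes had 0.01), and between LN-BEC and D-LEC 7 were higher and 1 lower (median 0.62, all genes 0.05). Between LN-LEC and D-LEC, however, 3 were higher and 7 lower in LN-LEC (median -1.29, all genes 0.03).

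Id1, a direct target of BMP Smads that blocks basic helix-loop-helix factors, had 13003, 12516 and 16829 normalized counts in LN-BEC. It had 5358, 6159 and 4714 in D-LEC. The LN-LEC libraries had 262, 145, 207 and 270. The populations did not overlap, and the lymphatic populations, which shared their Smad7 range, lay far apart in Id1. The blood marker sums of the LN-LEC libraries, 1305, 818, 866 and 1374, ranked them as Id1 did. In D-LEC these sums were lower, at 450 to 633, beside more Id1. The part of BEC in the LN-LEC values of Id1 was not tested. The log2 fold change was 5.97 ± 0.22 SE for LN-BEC over LN-LEC (adjusted p = 2.63e-09), 1.39 ± 0.20 for LN-BEC over D-LEC (adjusted p = 0.000155) and -4.58 ± 0.21 for LN-LEC over D-LEC (adjusted p = 1.07e-08).

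Id3 had the same order, with means of 5675 ± 690.2 in LN-BEC (n = 3), 2201 ± 232 in D-LEC (n = 3) and 599 ± 66.5 in LN-LEC (n = 4). LN-LEC were below D-LEC by a log2 fold change of -1.85 ± 0.11 (adjusted p = 1.36e-08). Id2 had this order as well, at 2726 ± 532, 1599 ± 236 and 799 ± 191, with -0.97 ± 0.19 for LN-LEC over D-LEC (adjusted p = 0.00153). Id4 did not: it had 357 ± 57.8 in LN-BEC, 51.7 ± 29.8 in the LN-LEC and 8.05 ± 2.64 in D-LEC, and LN-LEC were above D-LEC (2.68 ± 0.49, adjusted p = 0.000653). Hey1, a repressor induced by both Notch and BMP signals, had 284 ± 42.8 in LN-LEC against 5022 ± 111 and 6542 ± 454 in the LN-BEC and D-LEC. Atoh8, a further BMP target in endothelium, had 198 ± 49.9 in LN-BEC, 39.5 ± 12.4 in D-LEC and 13.1 ± 8.87 in LN-LEC, and all 3 differences passed the threshold (adjusted p of at most 0.00635). Tagln, a target of TGF-beta Smads in contractile cells, had 705 ± 178 in LN-BEC, 215 ± 7.51 in the LN-LEC and 151 ± 2.71 in D-LEC, and the fibroblast and pericyte marker sums had the same order by their medians. Their part in the Tagln values was not tested.

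**Figure D4:**
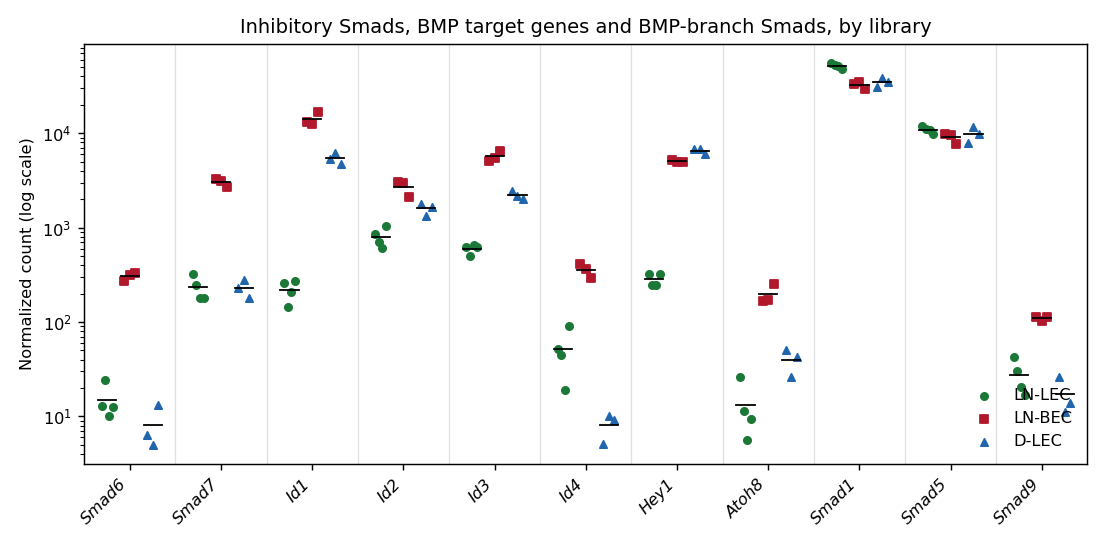
Normalized counts (log scale) of the inhibitory Smads, BMP target genes and BMP-branch Smads in each library, with symbols as in the plot of the 10 genes. Smad6 and Smad7 overlap between LN-LEC (green) and D-LEC (blue), whereas Id1, Id2, Id3, Hey1 and Atoh8 are lower in LN-LEC.

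The signaling Smads differed less than the target genes by their median absolute log2 fold change (0.68, 0.48 and 0.57 against 1.64, 1.72 and 0.89 for LN-LEC over D-LEC, LN-BEC over LN-LEC and LN-BEC over D-LEC). Smad1, the highest of them per kilobase in each population, had 51776 ± 3271 normalized counts in LN-LEC, 32506 ± 2622 in the LN-BEC and 34791 ± 3425 in the D-LEC. LN-LEC, the population with the least Id1, had the most Smad1, with a log2 fold change of 0.59 ± 0.10 over D-LEC (adjusted p = 0.000297) and of -0.69 ± 0.10 for LN-BEC over LN-LEC (adjusted p = 9.66e-05). Smad4 followed the same pattern, with 9097 ± 1259, 5323 ± 85.2 and 5842 ± 582. Smad5 had population means of 9048 to 10884 and passed no test with all libraries fitted. For LN-BEC over LN-LEC, whose libraries did not overlap, Smad5 passed when only these populations were fitted (-0.28, adjusted p = 0.0494) or without D-LEC 1 (-0.28, adjusted p = 0.0496). Smad9 was higher in LN-BEC, at 109 ± 6.13, where the lymphatic populations had 27.6 ± 11.6 (LN-LEC) and 17.2 ± 8.20 (D-LEC). In the TGF-beta branch, D-LEC stood apart from both lymph node populations. Smad2 was higher in D-LEC (3293 ± 305) than in the lymph node populations (1579.8 ± 100.3 for LN-LEC and 1619.9 ± 61.8 for LN-BEC). Smad3 was lower in D-LEC (893 ± 75.7) than in the lymph node populations (1851 ± 129.8 and 1838 ± 225). Between LN-BEC and LN-LEC the log2 fold change was 0.02 ± 0.08 for Smad2 (adjusted p = 0.879) and -0.02 ± 0.10 for Smad3 (adjusted p = 0.8805).

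Of the 25 further ligands, 20 could be tested, and 10 differed between LN-LEC and D-LEC (5 higher and 5 lower in LN-LEC), 12 between LN-BEC and LN-LEC (4 higher and 8 lower in LN-BEC) and 11 between LN-BEC and D-LEC (6 higher and 5 lower). The shares over all tested genes were 45.8%, 38.2% and 48.1%, so that the first and last counts were near the background. The median absolute log2 fold change of the ligands was 1.04, 1.42 and 1.32 in this order of comparisons, where all tested genes had 0.52, 0.43 and 0.58. Bmp2, a BMP that binds Bmpr1a, had 9357, 9738, 6911 and 10714 normalized counts in LN-LEC. It had 406, 330 and 469 in LN-BEC and only 20.2, 10.02 and 6.61 in D-LEC. Gdf10 (BMP3B), a relative of BMP3, was also highest in LN-LEC, at 16844 ± 3618 against 701 ± 463 in the LN-BEC and 276 ± 69.7 in the D-LEC. Its log2 fold change between LN-BEC and LN-LEC, -4.61 ± 0.53 (adjusted p = 0.000207), was -5.21 without LN-BEC 3. Bmp8a had 829 ± 91.3 in LN-LEC, 14.5 ± 13.4 in the LN-BEC and at most 1.26 in a D-LEC library. Bmp7 had 40.9 ± 9.23 in LN-LEC, 17.2 ± 8.88 in the D-LEC and at most 2.10 in an LN-BEC library. The lymphatic marker sums of the LN-BEC libraries, 4007, 2891 and 7955, ranked them as Bmp2 did. The part of LEC in the LN-BEC values of Bmp2, Gdf10 and Bmp8a was not tested. LN-LEC, with the most Bmp2, Gdf10 and Bmp8a, had the least Id1. Bmp6 was highest in LN-BEC, as Id1 was, at 254 ± 82.8 against 125 ± 27.2 in LN-LEC and 103 ± 29.1 in D-LEC. A link between these ligands and Id1 was not tested. Gdf2, which encodes the ALK1 ligand BMP9, stayed at 0 to 10.5 normalized counts in every library, and no difference was detectable at this depth (adjusted p of at least 0.725). Gdf5 had 6.99 ± 4.27 in LN-LEC, 8.68 ± 9.85 in the LN-BEC and 0 counts in all 3 D-LEC libraries, so that LN-LEC were at least 2.26-fold higher against a floor of 3 counts per library.

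All 3 TGF-beta genes were highest in D-LEC, the population with the most Tgfbr2. Tgfb1 had 549.6 ± 71.1 in D-LEC, 337 ± 51.6 in the LN-LEC and 243 ± 9.40 in the LN-BEC. Its difference between LN-BEC and LN-LEC (-0.48 ± 0.14, adjusted p = 0.0163) missed the threshold without LN-BEC 1 (-0.46, adjusted p = 0.0575). Tgfb2 had 4142 ± 439.9 in D-LEC, 1983 ± 310.4 in LN-BEC and 1251 ± 250.3 in the LN-LEC. Tgfb3 had 2579 ± 429 in D-LEC, 1198 ± 121 in the LN-LEC and 119.7 ± 71.6 in the LN-BEC. The part of LEC in this LN-BEC value was not tested. For Tgfb3 the excess of D-LEC over LN-LEC (log2 fold change of LN-LEC over D-LEC -1.08 ± 0.28, adjusted p = 0.0113) missed the threshold without D-LEC 1 (-0.95, adjusted p = 0.0507). Inhbb, which encodes the activin B subunit, had the order of Id1, with 1219 ± 429 in LN-BEC, 452 ± 88.8 in D-LEC and 29.3 ± 9.18 in LN-LEC.

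Secreted TGF-beta is held latent by its own propeptide, proteins of the Ltbp family anchor the latent complex in the matrix, and integrins and other partners release it. Of 12 genes of latency and activation, 9 differed between LN-LEC and D-LEC (4 higher and 5 lower in LN-LEC), 6 between LN-BEC and LN-LEC (1 higher and 5 lower in LN-BEC) and 10 between LN-BEC and D-LEC (3 higher and 7 lower in LN-BEC), where 45.8%, 38.2% and 48.1% of all tested genes differed. Their median absolute log2 fold changes were 1.16, 0.74 and 2.01 (all genes 0.52, 0.43 and 0.58). Ltbp2, which unlike its relatives does not bind latent TGF-beta, had 22478 ± 2515 in LN-LEC, 8139 ± 613 in the LN-BEC and 108 ± 18.8 in the D-LEC. Lrrc33, which tethers latent TGF-beta at the surface of some cells, had 7881 ± 729 in LN-BEC, 4606 ± 174 in the LN-LEC and 237 ± 31.1 in the D-LEC. Ltbp4, named after its values were seen, had the most in D-LEC (42712 ± 7635), with 5865 ± 907 and 7326 ± 754 for LN-LEC and LN-BEC. LN-BEC had the least Ltbp1 (786 ± 261), Ltbp3 (249 ± 57.2) and Fbn1 (1353 ± 214), the fibrillin that anchors these proteins. For the same genes LN-LEC had 6322 ± 545, 1230.5 ± 136 and 6336 ± 508. Itgb8, an integrin subunit that takes part in TGF-beta activation, had 31.6 ± 6.31 in D-LEC and at most 8.17 in any lymph node library.

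**Figure D5:**
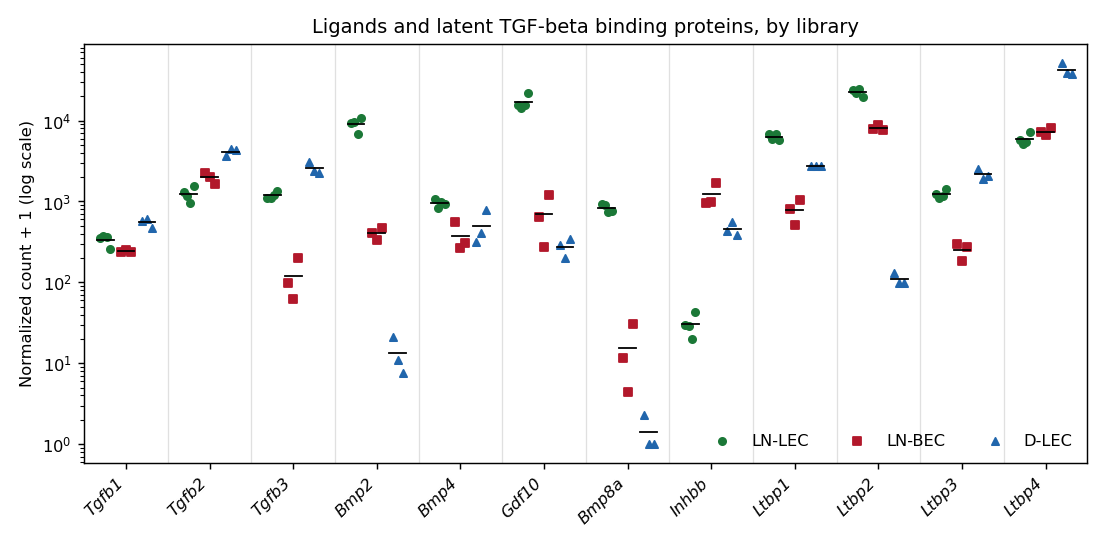
Normalized counts plus 1 (log scale) of ligand genes and latent TGF-beta binding proteins in each library, with symbols as in the plot of the 10 genes. Bmp2, Gdf10 and Bmp8a are highest in LN-LEC (green), the 3 TGF-beta genes and Ltbp4 are highest in D-LEC (blue), and Ltbp2 is lowest in D-LEC.

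Of the 12 other receptors and co-receptors, 11 could be tested, and 7 differed between LN-LEC and D-LEC (4 higher and 3 lower in LN-LEC), 5 between LN-BEC and LN-LEC (2 higher and 3 lower in LN-BEC) and 8 between LN-BEC and D-LEC (5 higher and 3 lower). Of all tested genes 45.8%, 38.2% and 48.1% differed, so that the count between LN-BEC and LN-LEC was near the background. The receptors had median absolute log2 fold changes of 0.69, 0.85 and 1.11 in the same comparisons, against 0.52, 0.43 and 0.58 for all genes. Acvr1, which encodes the BMP type I receptor ALK2, had another order than Acvrl1 and Bmpr1a: 2010.3 ± 199 in LN-LEC, 1269 ± 299 in D-LEC and 821 ± 60.4 in LN-BEC, and all 3 differences passed the threshold (adjusted p of at most 0.00266). Rgma, a BMP co-receptor, had 157 ± 66.2 in D-LEC, 35.9 ± 11.5 in the LN-LEC and 13.02 ± 4.10 in the LN-BEC. Hfe2, which encodes the BMP co-receptor hemojuvelin, had 32.01 ± 4.97 in LN-LEC, 18.6 ± 15.9 in the D-LEC and at most 0.875 in an LN-BEC library. Skeletal muscle is known to express hemojuvelin, the muscle marker sum was highest in D-LEC, and its part in the D-LEC value was not tested. Acvr1c and Amhr2 had at most 53.3 and 35.3 normalized counts in any library. The Amhr2 call between LN-LEC and D-LEC was lost on leaving out any 1 of 4 libraries (LN-LEC 1, LN-LEC 2, D-LEC 1 or D-LEC 3, adjusted p of 0.0620 to 0.139). The Acvr1c call between LN-BEC and D-LEC was lost without D-LEC 3 (adjusted p = 0.0602).

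Among 14 extracellular antagonists, 13 could be tested, and 9 differed between LN-LEC and D-LEC (5 higher and 4 lower in LN-LEC), 2 between LN-BEC and LN-LEC (1 in each direction) and 8 between LN-BEC and D-LEC (4 in each direction). Set against the 45.8%, 38.2% and 48.1% of all tested genes that differed, the count between LN-BEC and LN-LEC was below the background. Antagonists had median absolute log2 fold changes of 1.65, 0.75 and 1.93 (all genes 0.52, 0.43 and 0.58). Twsg1, a BMP-binding protein, was the highest of the group per kilobase in each population, and its normalized counts were 14409 ± 338 in D-LEC, 6981 ± 459.6 in the LN-LEC and 2605 ± 96.1 in the LN-BEC. Nbl1 had 875 ± 136 in D-LEC, 58.7 ± 17.5 in the LN-LEC and 101 ± 18.2 in the LN-BEC, and its call between the lymph node populations (0.75 ± 0.22, adjusted p = 0.0140) was lost without LN-BEC 1 (0.65, adjusted p = 0.0625). Grem1, a secreted BMP antagonist, was at 0 counts in all D-LEC libraries. It had 30.95 ± 11.8 in LN-LEC, at least 10.02-fold above a floor of 3 counts per library, and 35.4 ± 15.6 in LN-BEC. Sostdc1 had 66.2 ± 11.96 in LN-LEC, 32.5 ± 16.3 in the LN-BEC and at most 1.26 in a D-LEC library. Chrdl2 was at 0 in all 7 lymph node libraries and had 41.6, 9.02 and 4.96 in D-LEC. The fibroblast and pericyte sum was lower in D-LEC than in most lymph node libraries, as Grem1 and Sostdc1 were. Rgs5 was a large part of that sum in the lymph node populations, with means of 3856 in LN-LEC and 4393 in LN-BEC against 66.4 in D-LEC. Between LN-LEC and D-LEC, 4 of the 10 markers were higher in LN-LEC, beside 24.1% of all tested genes. The other 6, among them Col1a1, Col1a2, Lum, Dpt and Pdgfra, had no adjusted p under 0.05. The part of fibroblasts and pericytes in the Grem1 and Sostdc1 values was not tested.

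Of 12 intracellular regulators of Smads, 10 differed between LN-LEC and D-LEC (3 higher and 7 lower in LN-LEC), 7 between LN-BEC and LN-LEC (3 higher and 4 lower in LN-BEC) and 10 between LN-BEC and D-LEC (3 higher and 7 lower in LN-BEC), beside 45.8%, 38.2% and 48.1% of all tested genes. Regulators had median absolute log2 fold changes of 0.80, 0.33 and 0.61 where all genes had 0.52, 0.43 and 0.58. Nedd4l, a ubiquitin ligase that targets activated Smad2 and Smad3, had 3497 ± 157 in LN-LEC against 878 ± 106 and 1009.6 ± 46.96 in the LN-BEC and D-LEC. Tgif2, a corepressor of Smad2 and Smad3, had 561 ± 55.4 in LN-LEC, 254 ± 54.7 in the LN-BEC and 138 ± 7.47 in the D-LEC. Its relative Tgif1 had 1104 ± 151 in D-LEC, 840.4 ± 54.4 in LN-BEC and 579 ± 93.7 in the LN-LEC, and its call between LN-BEC and D-LEC was lost on leaving out any 1 of 5 libraries (each LN-BEC library, D-LEC 1 or D-LEC 3, adjusted p of 0.0532 to 0.110). Fkbp1a, which encodes FKBP12, a brake on type I receptor kinases, had 91305 ± 6758 in D-LEC against 44084 ± 2718 and 44749.9 ± 2845 for the LN-LEC and LN-BEC. Pmepa1 and Smurf2, feedback inhibitors of TGF-beta signaling, were also highest in D-LEC, at 2811 ± 389 and 5424 ± 204. Their calls between LN-BEC and LN-LEC were lost without LN-BEC 2 (adjusted p of 0.0558 and 0.0603).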

How the data were processed

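The authors used Fastx-trimmer on the reads, STAR for alignment (mm9) and featureCounts 1.4.4 for exon fragments per gene symbol. The deposited values are raw counts per gene, summed without regard to strand. A deposited column gives exon length in bases. The 10 genes and all lists were chosen with earlier results of these data known. Levels are counts over DESeq2 size factors. Predicted, RIKEN, LOC and clone symbols (3833) were left out, and genes whose normalized counts averaged at least 1 in a population were tested. edgeR 4.0.16 in R 4.3.3 fitted TMM-scaled counts with a robust quasi-likelihood F test and Benjamini-Hochberg adjustment within each comparison; DESeq2 1.42.0 was an alternative. The SE of a log2 fold change was derived from the test, as its absolute value over the square root of F. For a ratio difference the SE came from the variances of both populations. Scripts were tested on simulated data. Named genes were the 10, the TGF-beta ligands, Gdf2, signaling Smads, Id1 to Id3, up to 3 per list and comparison with the largest called, non-overlapping change, and nearest profiles (log2 CPM, prior count 2). Exon windows were aligned to mm9 with minimap2. At these depths 3 counts are 0.0613 to 0.134 CPM. The labels give no batch or pairing.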

Additional observations from a re-analysis of the deposited data

Results flagged for a closer look

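In 55 genes (the 10 receptors, ligand and inhibitory Smads and the named pathway genes), the 4 LN-LEC libraries were checked for a value far from the other 3, by the gap to the nearest other library over the group's range (Dixon's 95% limit). Chance alone flags about 1 in 20 such groups. None of the 10 genes had such a library, and 4 pathway genes did. Tgfb1 was low in LN-LEC 4, at 260 normalized counts where the others had 351 to 368. Rgma was high in LN-LEC 1, at 53.1 where the others had 29.5 to 30.5. Itgb8 was high in LN-LEC 4, at 8.17 against 1.27 to 2.26, and without this library its log2 fold change between LN-LEC and D-LEC was -4.16 in place of -3.03. Fkbp1a was high in LN-LEC 4, at 48152 against 42482 to 42913.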

How the results depend on the processing

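The counts of differing genes (all genes, the 10 genes, and pathway genes) stayed within 1.5 times under every alternative run: DESeq2 size factors, DESeq2's Wald test, no filter, an FPKM filter, predicted symbols kept, only the compared populations fitted, each library left out, and LN-BEC 3 and LN-LEC 4 left out together, which was chosen after seeing the data. With 1 library left out, 4 to 6 of the 10 genes differed between LN-LEC and D-LEC, 8 to 10 between LN-BEC and LN-LEC, and 8 in each fit between LN-BEC and D-LEC. Of 510 values of the 10 genes, 499 kept their side of the threshold, 8 passed it newly and 3 no longer passed, with no called difference reversed. Those that changed concern Bmp4, Tgfbr1, Smad6 and Bmpr1a. Bmp4 between LN-LEC and D-LEC passed with DESeq2 (0.94, adjusted p = 0.0041), over a range of 0.00313 to 0.160 across alternatives. Without LN-BEC 3 and LN-LEC 4, Bmp4 between LN-BEC and LN-LEC had an adjusted p of 0.0967. The ratios kept their direction with each library left out. No paired analysis was possible because the labels give no replicate numbers. Depth limits what can be said of genes of a few counts, such as Gdf2 and Smad6 in LEC, and precision rests on 3 or 4 pools a population.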

Other observations

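Among the target genes, some that are also induced by TGF-beta did not have the order of the Id genes (named here after their values were seen). Tgfbi, a secreted matrix protein, was highest in LN-LEC, at 12416 ± 1963 normalized counts against 9136 ± 795 in the LN-BEC and 6701 ± 1370.2 in the D-LEC. Ctgf had 2468 ± 976 in D-LEC, 2232 ± 203 in LN-BEC and 702 ± 59.8 in the LN-LEC. Col1a1, which is also among the fibroblast and pericyte markers, passed no test, with 445 ± 159 in LN-LEC, 518 ± 253 in the LN-BEC and 450.0 ± 385 in the D-LEC.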
